A study of Mus musculus with 24 samples.

Results

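The genes described here are 8 imprinted genes outside the Dlk1-Dio3 region, namely Peg10, Sgce, Zdbf2, Peg3, Mest, H19, Igf2 and Plagl1. They were picked by name from the 55335 genes of a small RNA count table, through their Ensembl identifiers in GENCODE mouse release 21, and all 8 were found. They were picked with earlier results of these libraries known, so their own levels and differences are given as descriptions without a test. Together they held 1043 of 25027120 counts, or 0.00417%.

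The libraries came from mouse embryonic stem cells (mESC) and from neural progenitor cells (NPC) made from them, in 6 genotypes of Htt, the Huntington's disease gene, which encodes huntingtin. The genotypes were wild type (WT), Htt knockout (KO) and 4 heterozygous knock-in lines with 20, 50, 92 and 111 CAG repeats in the Hdh locus, called Q20, Q50, Q92 and Q111. For the Q92 line the growth protocol gives 89 repeats. Each of the 12 groups had 2 libraries, described as biological samples, and the labels name 1 line per genotype without saying how many clones stand behind it, so a difference between genotypes cannot be told apart from a difference between cell lines. All mESC were kept with leukemia inhibitory factor on irradiated mouse fibroblast feeders, and all NPC in FGF and EGF on laminin.

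Imprinted genes are expressed mainly from the copy inherited from the father or mainly from the copy inherited from the mother. For many of them, though not all, the choice is set by DNA methylation laid down in the germ line at control regions. It is then kept through later cell divisions, although it can be lost or gained in cultured stem cells. Peg10, Sgce, Zdbf2, Peg3, Mest, Igf2 and Plagl1 are expressed from the paternal copy and H19 from the maternal copy, and many imprinted genes act in growth of the embryo and placenta and are active in the brain. The counts are per gene and do not separate the parental copies.

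Mest carries a microRNA, Mir335, in an intron, and this small RNA is the product that a small RNA library is built to capture. Its hairpin lies at chr6:30741299-30741396 on the plus strand (GRCm38), without overlap with a Mest exon. The sequences below are RefSeq's for GRCm38.p6. They show the seed (bases 2 to 8) of each mature arm in capitals, and then the hairpin with both arms in capitals.
mmu-miR-335-5p: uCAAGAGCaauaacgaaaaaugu
mmu-miR-335-3p: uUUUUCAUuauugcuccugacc
pre-Mir335: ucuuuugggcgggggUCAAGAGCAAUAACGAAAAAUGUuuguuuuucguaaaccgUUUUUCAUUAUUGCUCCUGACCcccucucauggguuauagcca
The arms have different seeds. The table counts per gene, so it does not say which arm the counts came from.

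Zdbf2 had counts in every mESC library and none in most NPC libraries, and RefSeq lists 2 starts for it on chromosome 1, plus strand. The 250 bases before each start are printed with every CG pair, the dinucleotide at which DNA is methylated, in capitals. CG reads the same on both strands.
Zdbf2 upstream start, chr1:63200108-63200357: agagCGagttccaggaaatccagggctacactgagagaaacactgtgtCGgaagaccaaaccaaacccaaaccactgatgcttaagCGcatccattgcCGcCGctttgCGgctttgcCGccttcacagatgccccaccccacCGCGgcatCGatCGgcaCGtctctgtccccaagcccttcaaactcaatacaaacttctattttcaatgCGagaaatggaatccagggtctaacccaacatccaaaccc
Zdbf2 downstream start, chr1:63273019-63273268: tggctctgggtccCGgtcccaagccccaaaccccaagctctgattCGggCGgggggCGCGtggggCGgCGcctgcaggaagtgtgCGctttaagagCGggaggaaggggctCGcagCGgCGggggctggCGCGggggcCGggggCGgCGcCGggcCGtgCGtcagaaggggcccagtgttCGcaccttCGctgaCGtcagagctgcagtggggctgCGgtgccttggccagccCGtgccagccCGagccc
The full windows also hold the first 50 bases after the start, 300 bases in all. The downstream window held 38 CG pairs, and 4.96% of 32817 promoter windows of that length held as many or more. The upstream window held 15, reached by 34.6% of windows, against a median of 7. Methylation was not measured in these libraries.

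Total counts per library lay between 642384 and 2360434 in mESC and between 342022 and 682113 in NPC, and 62.7% of all counts fell on snoRNA genes and 4.58% on protein-coding genes. Levels are therefore given with the raw counts, and as CPM, counts divided by the TMM-scaled library total and brought to a common library size. Whether the counts of protein-coding genes in these small RNA libraries follow their mRNA levels was not tested. For Htt itself, the KO libraries held 3 and 2 counts against 8 and 8 for WT among mESC, and 1 and 1 against 9 and 2 among NPC. The 12 neural progenitor markers summed to between 6.37 and 20.5 CPM in mESC and between 175 and 994 CPM in NPC, but 2 of them, Mir9-2 and Mir124a-1, had no count in any library. The Q20 NPC libraries stood apart. Their 5 pluripotency microRNAs summed to between 311 and 314 CPM (176 to 197 counts), against 0 or 1 count in the other 10 NPC libraries and between 938 and 2420 CPM in mESC, and their neural markers reached between 175 and 199 CPM against between 406 and 994 CPM in the other NPC. Of 8 pluripotency mRNAs (Sox2 left out), 7 had no count in the Q20 NPC libraries, and the summed count was 1 in each. The mRNA with a count was Pou5f1, which had none in the other 10 NPC libraries. The 8 mRNAs summed to between 26 and 87 counts in mESC, where library totals were larger, and to between 0 and 2 in the other 10 NPC libraries. These counts are too low to tell whether the mRNAs differed from the microRNAs in the Q20 NPC libraries. Results that rest on the Q20 libraries are given with and without them. In such bulk samples fewer cells of a type and less RNA per cell cannot be told apart.

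Peg10 was the most counted of the 8 genes. Peg10 derives from a retrotransposon and encodes Gag- and Pol-like proteins that are needed to build the placenta. It spans chr6:4747306-4760517 on the plus strand, shared no 30-base stretch of its transcripts with another gene, and had counts in all 24 libraries, 460 in total (238 in mESC and 222 in NPC). Its line means spanned a wider range in NPC than in mESC.

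In mESC, Peg10 received 22 and 13 counts in WT (12.7 ± 0.33 CPM; SD, n = 2 here and for every line below), 13 and 5 in KO (6.11 ± 1.12 CPM), 21 and 29 in Q20 (17.4 ± 2.89 CPM), 33 and 11 in Q50 (15.5 ± 0.446 CPM), 14 and 15 in Q92 (14.5 ± 7.16 CPM) and 26 and 36 in Q111 (21.5 ± 9.35 CPM). Only the 2 lowest lines, WT and KO, were neighbours without overlap. Both KO libraries lay below all other mESC libraries, and the share of all genes with this order is not given.

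In NPC, Peg10 received 43 and 46 counts in Q92 (66.5 and 72.5 CPM), 25 and 27 in Q20 (44.1 and 43.1 CPM), 20 and 19 in KO (39.7 and 45.3 CPM), 9 and 11 in Q111 (23.8 and 25.6 CPM), 7 and 7 in Q50 (16.5 and 20.1 CPM) and 2 and 6 in WT (3.04 and 12.5 CPM). All 10 libraries of the other lines were above both WT libraries. Of 441 genes tested in NPC, 17% had both KO libraries above both WT libraries, and the share was 26.8% for Q20, 27% for Q50, 27.7% for Q92 and 20.2% for Q111. Going down this order, Q20 and KO overlapped, and each other neighbouring pair was separate. The Q92 mean was 69.5 ± 4.25 CPM and the WT mean 7.79 ± 6.72 CPM.

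Against WT in NPC, the edgeR log2 difference was 3.53 ± 0.46 (SE) for Q92, 2.75 ± 0.48 for Q20, 2.60 ± 0.50 for KO, 1.87 ± 0.55 for Q111 and 1.26 ± 0.59 for Q50. These 5 differences share the 2 WT libraries, which hold 8 Peg10 counts between them. Without WT replicate 1 the KO difference was 1.86 and without WT replicate 2 it was 3.82. In mESC the same differences from WT ranged from -0.93 ± 0.53 for KO to 0.61 ± 0.48 for Q111. Repeat number and level did not run in 1 order in NPC: from 20 to 111 repeats the means were 43.6, 18.3, 69.5 and 24.7 CPM, and the slope per 10 repeats over the 8 knock-in libraries was 0.04 ± 0.08 in NPC and 0.00 ± 0.05 in mESC.

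**Figure D1:**
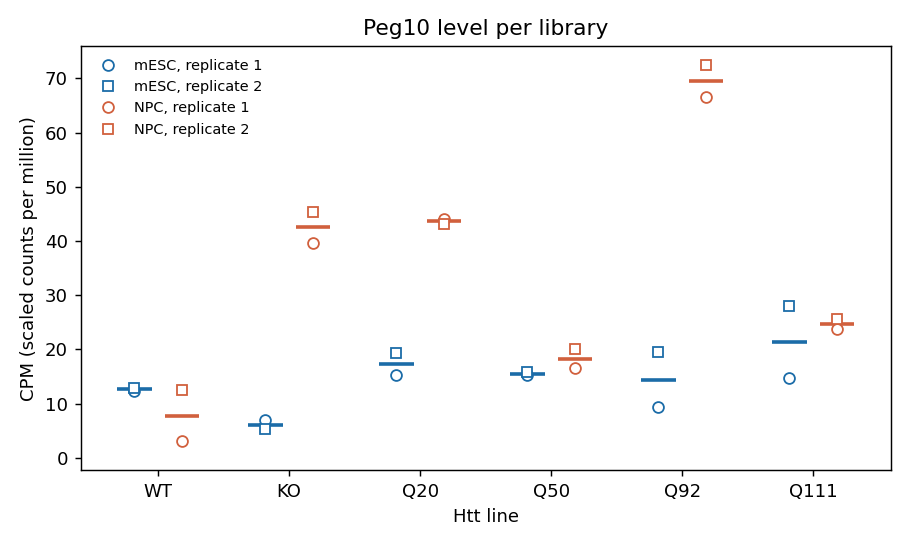
Peg10 level in CPM (vertical axis) in each of the 24 libraries, by Htt line (horizontal axis) and cell type. Circles are replicate 1, squares replicate 2 and bars the mean of 2. The mESC means lie between 6.11 and 21.5 CPM and the NPC means between 7.79 and 69.5 CPM.

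Between cell types, Peg10 averaged 34.4 ± 21.3 CPM in NPC and 14.6 ± 6.12 CPM in mESC (SD, n = 12 each), a log2 difference of 1.01 ± 0.21, or 0.81 without the Q20 libraries. The lines did not share this difference. The NPC mean was 6.95 times the mESC mean in KO, 4.8 times in Q92 and 2.51 times in Q20, with NPC libraries above mESC libraries in each. It was 1.18 times in Q50, 1.15 times in Q111 and 0.616 times in WT, and the 2 cell types overlapped in Q111 and WT. With library totals in place of TMM, the Q50 means were 14.8 in NPC and 16.3 in mESC, so the direction in Q50 turned.

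The share of counts on protein-coding genes also differed between NPC lines, from 4.08% and 4.43% in Q50 to 6.65% and 6.84% in Q92, and was 6.02% and 6.44% in KO and 5.25% and 5.87% in WT. Scaled to protein-coding counts alone, a scaling chosen after the values were seen, Peg10 stood at 1510 ± 116 CPM in Q92 NPC, 850 ± 16.7 CPM in KO NPC and 144 ± 124 CPM in WT NPC. The ratio to WT on this scale was 10.5 for Q92 and 5.91 for KO, against 8.91 and 5.45 with TMM. The part of the protein-coding share in the differences between lines was not tested.

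Sgce, which encodes epsilon-sarcoglycan, a membrane protein of the dystrophin-associated complex, starts 99 bases from the start of Peg10 on the opposite strand and spans chr6:4674350-4747207. It received 12 counts in 11 libraries, 6 in each cell type, with at most 2 in any library. In the NPC of Q92, where Peg10 was highest, Sgce had 1 and 1 count. Its level was too low to order lines or cell types.

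By the rule used for likeness, the genes whose log2 CPM ran most like that of Peg10 over the 12 NPC libraries were Fth1 (ferritin heavy chain, Pearson r 0.90), Cnbp (a nucleic acid binding protein, 0.85), Cct2 (a chaperonin subunit, 0.797), Nisch (nischarin, 0.756) and Nedd4 (a ubiquitin ligase, 0.732). The median r over 440 genes was -0.037, and 2 genes exceeded 0.8. These values describe 12 libraries that come in 6 pairs and share depth and scaling, and all 5 genes are protein coding. Spearman's rho put 3 of the 5, Fth1, Cnbp and Nisch, among its own top 5.

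Zdbf2, a zinc finger gene with a role in postnatal growth and feeding, spans chr1:63273265-63314576 on the plus strand and showed the sharpest contrast of the 8. All 12 mESC libraries had counts, from 4 to 33 (12.1 ± 3.8 CPM), 205 in total. In NPC it had 14 and 10 counts in Q20 (24.7 and 16.0 CPM) and none in the other 10 libraries.

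In mESC the means were 16.5 ± 3.34 CPM in WT, 14.8 ± 0.57 in Q50, 13.3 ± 1.04 in Q111, 12.3 ± 1.24 in Q20, 8.58 ± 0.746 in Q92 and 7.44 ± 4.50 in KO. Of the neighbours in this order, Q50 and Q111 were separate, as were Q20 and Q92, and the others overlapped. The slope per 10 repeats in mESC was -0.04 ± 0.05.

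With 3 counts over a group as the floor for a count of 0, Zdbf2 was at least 5.98-fold lower in NPC than in mESC in WT, 3.87-fold in Q50, 3.6-fold in Q92, 3.56-fold in Q111 and 2.62-fold in KO. Over these 5 lines together, 170 counts in mESC stood against 0 in NPC, at least 20.4-fold lower. Such bounds take the mESC level as measured, so they cover counting error on the NPC side only. In KO, the line with the smallest bound, the lower 95% Poisson limit in mESC was 5.45 CPM. The upper limit in KO NPC was 3.99 CPM. In Q20 the NPC mean was 1.66 times the mESC mean (20.3 ± 6.19 against 12.3 ± 1.24 CPM), both NPC libraries lay above both mESC libraries, and the log2 difference was 0.72 ± 0.51. The same 2 Q20 NPC libraries are those with pluripotency microRNAs. Of these, Mir293 stood at 90.0 and 89.3 CPM there, below every mESC library, and Mir302b at 217 and 220 CPM, below the Q20 mESC libraries (766 and 752 CPM) and above the other 10 mESC libraries (2.13 to 130 CPM). The part of the remaining stem cell signal in this result was not tested.

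Peg3, a paternally expressed zinc finger transcription factor of brain and placenta, spans chr7:6703892-6730431 on the minus strand and was also highest in the Q20 NPC libraries. It received 107 counts in 21 libraries, 49 in mESC and 58 in NPC. In NPC the counts were 13 and 16 in Q20, 9 and 4 in Q92, 4 and 3 in Q50, 4 and 0 in KO, 0 and 3 in Q111 and 1 and 1 in WT. The Q20 libraries, at 22.9 and 25.5 CPM, were above all other NPC libraries, of which the highest was 13.9 CPM. The share of all genes with this order is not given, and Peg3 passed the filter on low counts in NPC through these Q20 libraries. In mESC the 12 libraries had from 0 to 8 counts, with means from 0.531 ± 0.751 CPM in KO to 4.6 ± 1.76 CPM in Q20.

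Over all lines Peg3 averaged 8.77 ± 8.36 CPM in NPC and 2.97 ± 1.84 CPM in mESC (SD, n = 12 each), with a log2 difference of 1.26 ± 0.44. NPC libraries were above mESC libraries in Q20 (5.27 times), Q50 (3.82 times) and Q92 (2.77 times) and overlapped in WT, KO and Q111. Without the Q20 libraries Peg3 did not pass the filter on low counts, and leaving out single libraries moved the difference between 0.24 and 1.52. The value nearest 0 came without KO NPC replicate 1. Usp29, which starts 147 bases away on the opposite strand, had 5 counts.

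**Figure D2:**
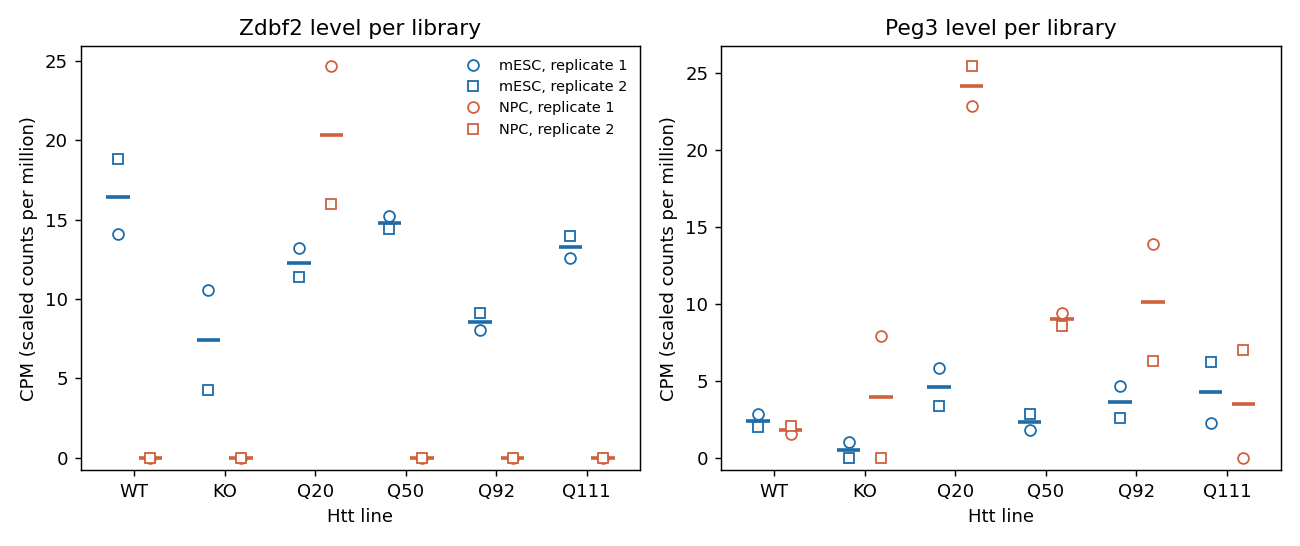
Zdbf2 (left) and Peg3 (right) in CPM (vertical axes) in each library, by Htt line and cell type, with circles for replicate 1, squares for replicate 2 and bars for the mean of 2. Zdbf2 is at 0 in all NPC libraries except Q20 (24.7 and 16.0 CPM), and Peg3 is highest in Q20 NPC.

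Mest encodes a protein of the alpha/beta hydrolase fold and is expressed in mesoderm and in the developing brain. It spans chr6:30723547-30748465 on the plus strand, and its 220 counts in 23 libraries divided into 62 in mESC and 158 in NPC. Part of this value is uncertain, because 912 bases of Mest exon overlap Copg2 on the opposite strand. Whether counting used strand is not given in the sources used here. Of the 30-base stretches of Mest, compared on both strands, 22.0% were shared, most of all with Copg2, which largely restates the same overlap. Copg2 itself had 48 counts in mESC and 5 in NPC. The part of reads from the shared bases in the Mest counts was not tested.

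In NPC, Mest received 31 and 37 counts in Q92, 8 and 27 in WT, 14 and 9 in Q50, 8 and 9 in Q20, 4 and 7 in KO and 3 and 1 in Q111. The Q92 mean was 53.1 ± 7.34 CPM, the Q111 mean 5.13 ± 3.96 CPM, and the WT libraries were far apart at 12.2 and 56.5 CPM. The Q111 libraries, at 7.92 and 2.33 CPM, were the lowest in NPC, with KO replicate 1 next at 7.93 CPM. The share of all genes with this order is not given. Against WT the log2 difference was -2.53 ± 0.81 for Q111 and 1.00 ± 0.50 for Q92, whose libraries overlapped those of WT.

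In mESC, Mest received 1 and 1 count in WT, 1 and 1 in KO, 11 and 12 in Q20, 10 and 8 in Q111, 2 and 4 in Q50 and 11 and 0 in Q92. The WT and KO libraries thus held 4 counts in all. Both Q20 libraries stood at 8.04 CPM, above all others, and the share of all genes with this order is not given. Feeder fibroblast markers other than Vim summed to between 2 and 13 counts in the mESC libraries, where 5 of 11 had counts and 6 were at 0. In NPC, kept on laminin, 8 of 11 had counts and the sums were also between 2 and 13. After scaling for depth, the sums were between 1.13 and 10.1 CPM in mESC and between 4.77 and 22.9 CPM in NPC. The part of feeder cells in the Mest counts was not tested.

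Mest averaged 24.7 ± 19.7 CPM in NPC and 3.77 ± 3.32 CPM in mESC (SD, n = 12 each), a log2 difference of 2.80 ± 0.42, or 3.05 without the Q20 libraries. NPC libraries were above mESC libraries in 5 of 6 lines, and the share of all genes that did so is not given. The NPC mean was 14.4 times the mESC mean in Q92, 8.81 times in Q50 and 1.77 times in Q20, and in WT and KO the mESC counts were too few for a ratio. In Q111 the cell types overlapped, at a ratio of 0.858.

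Mir335 is not one of the 8 genes, and its counts were not used to choose them, although it was named with earlier results of these libraries known. It shared no 30-base stretch with another gene and had 202 counts in 23 libraries. In mESC the counts ranged from 0 to 13 (4.17 ± 2.66 CPM) and in NPC from 2 to 28 (23.0 ± 15.2 CPM; SD, n = 12 each). Mir335 rose in NPC by 2.42 ± 0.40 on the log2 scale (edgeR quasi-likelihood test, Benjamini-Hochberg adjusted p = 1.69e-05). Leaving out single libraries gave values between 1.76 and 2.91. Mir335 passed the filter on low counts through NPC libraries only, in which it was high. Without the filter the log2 difference was 1.83 (edgeR adjusted p = 4.96e-07). The 2 cell types were separate in 5 of 6 lines and overlapped in WT, where the NPC libraries had 2 and 19 counts.

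Among NPC lines, Mir335 received 28 and 17 counts in Q92, 10 and 16 in Q50, 5 and 15 in KO, 2 and 19 in WT, 11 and 4 in Q20 and 4 and 5 in Q111. The replicates of WT and KO were far apart. No difference between lines was detectable by edgeR's joint test in NPC (adjusted p = 0.304) or in mESC (adjusted p = 1.0). The slope per 10 repeats was 0.05 ± 0.09 in NPC (edgeR adjusted p = 0.848) and 0.02 ± 0.08 in mESC (edgeR adjusted p = 0.999).

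Host and microRNA were both higher in NPC, and their order over the lines was compared. Over the 6 line means in NPC, Pearson's r between Mest and Mir335 was 0.72 and Spearman's rho 0.829, and without the 2 lines farthest from the Mest median they were 0.367 and 0.40. In mESC, r was 0.57 and rho 0.20, and without the 2 farthest lines 0.382 and -0.20. These values are descriptions over 6 points whose genes share libraries and depth, and they rest on the farthest lines.

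**Figure D3:**
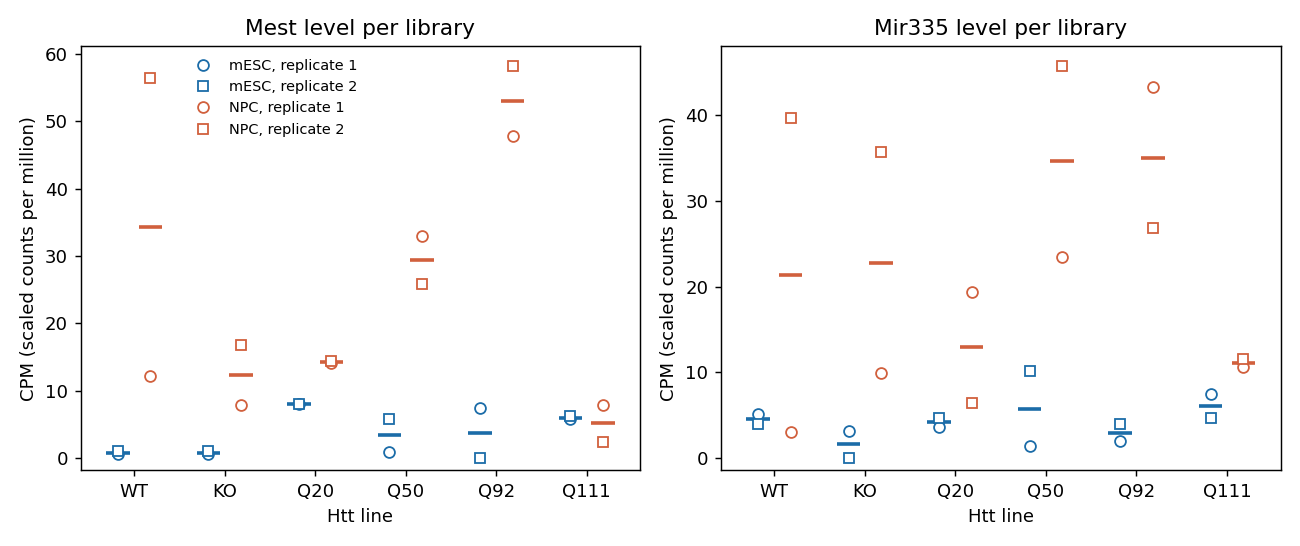
Mest (left) and its intronic microRNA Mir335 (right) in CPM (vertical axes) in each library, by Htt line and cell type, with circles for replicate 1, squares for replicate 2 and bars for the mean of 2. Q92 NPC has the highest mean of Mest (53.1 CPM), and the WT NPC replicates differ widely for both genes.

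H19, Igf2 and Plagl1 were close to absent from these libraries. H19, the maternally expressed non-coding RNA that shares an imprinting control region with Igf2, had 6 counts in 4 libraries, of which 3 fell in Q20 NPC replicate 1 and the others in Q20 and Q111 mESC. Igf2, the fetal growth factor, had 1 count, in Q92 mESC, and 63.2% of its 30-base stretches are shared with an overlapping gene model. Plagl1, a zinc finger regulator of other imprinted genes, had 8 counts in 6 libraries (5 in mESC and 3 in NPC). Mir675, within an H19 exon at chr7:142577064-142577147, and Mir483, within Igf2 at chr7:142654924-142654996, had no counts. These totals are too low to compare groups.

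Per kilobase of exon, merged over all annotated transcripts, Peg10 and Mest led in NPC at 5.16 ± 3.19 and 6.27 ± 4.98 CPM per kb (SD, n = 12). These values rank counts in small RNA libraries and need not rank mRNA levels. For Mest they include the bases shared with Copg2. Peg3 stood at 0.658 ± 0.628 and Zdbf2 at 0.268 ± 0.642 CPM per kb there. In mESC the order was Peg10 at 2.19 ± 0.917, Zdbf2 at 0.959 ± 0.30, Mest at 0.956 ± 0.842 and Peg3 at 0.223 ± 0.138 CPM per kb. The ranges of Zdbf2 and Mest in mESC thus could not be put in order.

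**Figure D4:**
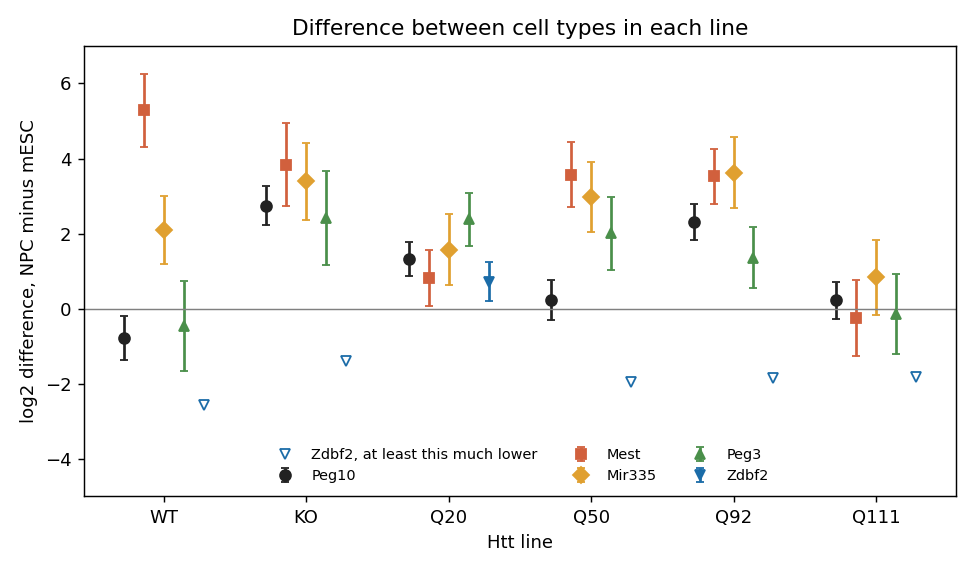
Log2 difference between NPC and mESC (vertical axis) in each Htt line (horizontal axis) for 4 imprinted genes and Mir335, from the edgeR fit. Filled symbols with bars are estimates ± SE. Open triangles are Zdbf2 in lines without an NPC count. They lie at the bound from a floor of 3 NPC counts (2.62-fold in KO to 5.98-fold in WT), with the mESC level as measured. Zdbf2 lies above 0 in Q20 alone, and Mest, Mir335 and Peg10 vary in size between lines.

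The counts of calls over all genes set these values in context. Of 904 genes tested between cell types, 58.4% were called at an adjusted p under 0.05 (30.4% higher and 28% lower in NPC). The share of all genes whose cell types were separate within a line is not given. Counts of lines with separate cell types, above and for Jade1 below, are therefore descriptions only. Of the 8 genes, 4 passed the filter on low counts in this fit, Peg10, Mest, Peg3 and Zdbf2, and the last of these was the only one with a negative difference. In the joint test of lines, 37.2% of 441 genes were called in NPC, where Peg10, Mest and Peg3 passed the filter, and 0.0566% of 1766 in mESC, where Peg10, Mest and Zdbf2 passed it. Peg3 passed in NPC through the Q20 libraries, in which it was high. The slope on repeat length called 6.45% of 403 genes in NPC and 0% of 1487 in mESC. The rule that chose the 8 genes used these same libraries, so their own calls are not given.

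A list of 75 other imprinted genes and small RNAs was examined for the same comparisons, without a measure of their imprinting in these cells. Of these symbols 73 were in the table, 55 had a count and 28 had at least 20 counts, of which 13 had the higher pooled CPM in mESC and 15 in NPC. Over all 6809 genes with at least 20 counts, 46.6% were higher in mESC. Between cell types 4 passed the filter and 2 changed, with 3 called when library totals replaced TMM and 4 to 5 when any library was left out, which loosens the filter. Jade1, a subunit of a histone acetyltransferase complex, fell from 17.6 ± 6.3 to 2.07 ± 1.98 CPM (SD, n = 12 each), a log2 change of -3.04 ± 0.41 (edgeR adjusted p = 1.19e-06), and was lower in NPC in all 6 lines. Cd81, a tetraspanin membrane protein, rose from 4.25 ± 2.19 to 12.5 ± 4.78 CPM, a log2 change of 1.54 ± 0.30 (edgeR adjusted p = 0.000133). Jade1 passed the filter through mESC libraries only and Cd81 through NPC libraries only, in which each was high. Without the filter the log2 difference was -3.56 for Jade1 (edgeR adjusted p = 2.98e-17) and 0.97 for Cd81 (edgeR adjusted p = 0.0354). The other 2, Ube3a and Mir296, had log2 differences of 0.38 ± 0.20 (edgeR adjusted p = 0.0973) and 0.38 ± 0.35 (edgeR adjusted p = 0.362), and both turned negative without the filter (-0.19 and -0.12).

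Between NPC lines, 3 of the list were tested and 1, Mir296, was called by the joint test (edgeR adjusted p = 0.037). That test called 37.2% of 441 genes, so 1 of 3 is no more than the share over all genes. Mir296 is a microRNA of the Gnas imprinted domain (chr2:174267047-174267125, minus strand). Its mature arms are shown with the seed in capitals.
mmu-miR-296-5p: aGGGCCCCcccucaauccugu
mmu-miR-296-3p: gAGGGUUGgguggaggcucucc
Mir296 stood at 39.6 and 72.2 CPM in Q111 (15 and 31 counts), at 26.5 and 44.7 CPM in Q20, and at means between 19.6 ± 2.55 CPM (KO) and 22.5 ± 12.5 CPM (WT) in the other 4 lines. Q111 was above WT by 1.48 ± 0.44 on the log2 scale (edgeR adjusted p = 0.0382, a comparison that called 10.9% of 441 genes). Both Q111 libraries were above both WT libraries, as in 20.2% of the 441 genes. The call in the joint test was lost with DESeq2, without the Q20 libraries, and without either Q92 library, either Q111 library, Q20 replicate 2 or Q50 replicate 2. In mESC, edgeR tested 12 of the list and called 0 (1 at an unadjusted p under 0.05, and 0 with DESeq2), and the slopes called 0 of 2 in NPC and 0 of 10 in mESC. Mir296 and Jade1 were higher in replicate 2 than in replicate 1 in all 6 mESC lines.

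Many imprinted genes had too few counts for the filter. The genes named in this paragraph were picked after their values were seen. Without the filter, 10.4% of 19429 genes were called between cell types. Of the 55 listed genes with a count, 13 were called, 9 lower and 4 higher in NPC. These shares are not like for like, since 28 of the 55 and 6809 of the 19429 had at least 20 counts. The fit without the filter shifted the log2 difference of the filtered genes by a median of -0.56. Its calls over all genes were 464 higher and 1560 lower. With the scaling of the filtered genes kept, an alternative added after seeing the data, calls over all genes were 692 higher and 661 lower, and the same 13 listed genes were called in the same directions. Among those lower were Adam23 (122 counts in mESC and 4 in NPC, edgeR adjusted p = 4.29e-10), the zinc finger gene Zfp568 (105 and 5, edgeR adjusted p = 2.07e-09), the amino acid transporter Slc38a4 (76 and 6, edgeR adjusted p = 1.37e-05), the growth-limiting adaptor Grb10 (54 and 2, edgeR adjusted p = 3.03e-05) and Igf2r, the receptor that clears Igf2 (80 and 14, edgeR adjusted p = 0.000739). Those higher were Gnas, the stimulatory G protein alpha subunit (27 and 50, edgeR adjusted p = 0.000809), Nap1l5 (0 and 17, at least 15.4-fold, edgeR adjusted p = 0.000874), Nnat, neuronatin (5 and 18, edgeR adjusted p = 0.00165), and Cd81. The bound of 15.4-fold for Nap1l5 rests on a floor of 3 counts in mESC and takes the NPC level as measured. The others called lower were Jade1, Gab1, Snhg14 and Copg2. Total counts were larger in mESC, so counts of the cell types compare only after scaling.

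**Figure D5:**
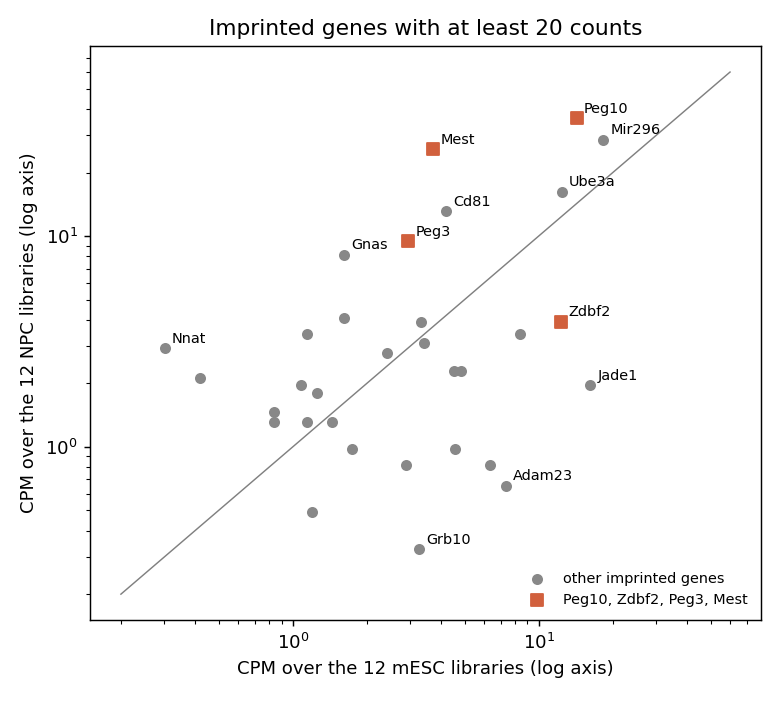
Pooled CPM in the 12 NPC libraries (vertical axis) against the 12 mESC libraries (horizontal axis), both on log scales, for imprinted genes with at least 20 counts. Squares are Peg10, Zdbf2, Peg3 and Mest, grey points the 28 other listed genes, and the line marks equal levels. Peg10, Mest and Peg3 lie above the line and Zdbf2 and Jade1 below it.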

How the data were processed

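Small RNA libraries (24) were aligned with STAR and counted with HTSeq on GRCm38.p6 after base calling with CASAVA 1.8, per the submitters' processing notes. Adapter trimming, annotation release and use of strand are not given in the sources used here. The authors deposited whole-number counts per gene, not normalized. Columns were matched to samples by label, with those named Q89 assigned to the samples titled Q92. Of 55335 identifiers, 55154 matched GENCODE release 21, and the 181 unmatched held 57 counts.

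The counts were tested with edgeR 4.0.16 (glmQLFit and glmQLFTest, TMM, filterByExpr with a minimum count of 10 and total of 15, Benjamini-Hochberg adjustment, threshold 0.05): the mean of the NPC groups minus that of the mESC groups (24 libraries), a joint test of lines within a cell type (12 libraries), and a slope per 10 repeats (8 knock-in libraries). The tests were also run on simulated counts with a single spread for all genes. That setting does not copy the spread of these libraries, so its outcome is not used here. Members, gene lists and named-gene rules were chosen with earlier results of these data known: named are the 8 genes, the microRNAs within them, neighbours within 5000 bases with a count, listed imprinted genes called in a fit, and the 5 genes most like Peg10 by Pearson's r of log2 CPM (prior count 2). Genes named from the fit without a filter were chosen after their values were seen. Alternatives were DESeq2 1.42.0 (test or size factors), library totals, no filter, a replicate block, leaving out Q20 or each library, and, added after seeing the data, protein-coding totals and a fit without filter that keeps the scaling of the filtered genes. Replicates differed by more than sampling noise in every group. Trophoblast markers were at 0 in all NPC libraries and summed to between 0 and 6 counts in mESC.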

Additional observations from a re-analysis of the deposited data

Results flagged for a closer look

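Zdbf2 in the Q20 line was singled out because its direction between cell types was opposite to that of the other 5 lines: the NPC mean was 1.66 times the mESC mean in Q20, with both NPC libraries above both mESC libraries, while all 10 NPC libraries of the other lines had no count and lay below their mESC libraries. The difference between lines was not tested, since Zdbf2 was chosen with these values known.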

How the results depend on the processing

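The number of genes called between NPC and mESC was 528, 2024 without the filter on low counts, and 1353 without it but with the scaling of the filtered genes. Leaving out each library, which also loosens the filter because the smallest group is then 1 library, gave 646 to 724. Scaling by library totals shifted the median log2 difference by 0.345, with 354 genes higher and 159 lower against 275 and 253. The joint test of NPC lines called 164 genes, and 88 without Q20. Leaving out each library gave 100 to 226, with 100 without Q92 replicate 1 and 104 without Q92 replicate 2. The joint test of mESC lines called 1 gene, 3 with library totals, 6 without a filter, 7 with DESeq2, 0 without Q20 and 1 to 5 with each library left out. The NPC slope called 26 genes, 50 without a filter, 11 with DESeq2, 15 without Q20 and 6 to 34 with each library left out (6 and 9 without a Q20 library, 14 without Q92 replicate 2). The mESC slope called 0 (48 genes had an unadjusted p under 0.05), 2 without a filter and 0 to 3 with each library left out.

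The labels do not say that a replicate number marks a shared batch. Deviations of same-numbered libraries correlated above 0.1 in 10 of 15 pairs of mESC groups (r over all 15 from 0.000863 to 0.535) and in 4 of 15 pairs of NPC groups (from -0.0869 to 0.413). Pairing was taken only where every pair exceeded 0.1, which held in neither cell type. With the number as a block, the joint test of mESC lines called 29 genes, the NPC slope 9 and the mESC slope 3.

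Mir335 stayed called between cell types in all 31 alternatives run. The log2 difference of Peg10 between cell types was 0.44 without the filter and 0.59 to 0.96 with each library left out, and that of Peg3 0.69 and 0.24 to 1.52. The Peg10 difference of KO from WT in NPC was 2.26 without the filter and 1.86 to 3.82 with each library left out. Without the filter, the log2 differences of the filtered genes between cell types shifted by a median of -0.56. The part of this shift in the Peg10 and Peg3 changes, and the cause of the other changes, was not tested. Library totals moved 19 of 96 group levels by more than 1 SD and DESeq2 size factors 5. Levels of Sgce, H19, Igf2 and Plagl1 are limited by depth.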

Other observations

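The values of 2 RNAs were picked out after they had been seen. Snhg14, the imprinted host of the Snord115 and Snord116 clusters, had 75 counts in mESC, 14 in NPC, of which the 2 Q20 libraries held 5 and 7. Platr12, which begins near the upstream start of Zdbf2, had 10 counts in mESC and 0 in NPC.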
